A study of Mus musculus with 375 samples.

Results

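The genes described here encode the protein components of the cytosolic ribosome in mouse intestinal crypt cells. They were taken from the expression table by symbol alone (Rpl or Rps and a number, Rplp0 to Rplp2, and Rpsa), leaving out ribosomal S6 kinases and pseudogenes. The rule gave 80 of 23420 rows, 49 for the large and 31 for the small subunit. GENCODE annotates each of the 80 as protein coding. Of these, 76 are core ribosomal protein genes and 4 are paralogs: Rpl3l, Rpl10l, Rpl39l and Rps27l. A mean of at least 1 TPM (a transcript level scaled to a fixed total per cell and corrected for transcript length) over the sets was reached by 77, and only these entered the test between diets. The other 3, Rpl3l, Rpl10l and Rpl39l, which are known mainly from muscle and testis, were above 0 in 1, 2 and 2 of all cells kept. The rule misses 8 related genes with other symbols. Among them, Fau, whose product is made as a fusion to a ubiquitin-like protein, was at 1290 to 2562 TPM in the sets, Rps3a1 at 2498 to 4418, and Gnb2l1, which encodes the ribosome-bound scaffold RACK1, at 3036 to 4860.

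The data were single-cell transcriptomes (Smart-seq2, which copies whole transcripts of cells sorted into wells) of mouse small intestinal cells sorted for Lgr5, a receptor that marks stem cells at the crypt base. Cells came from mice on a control diet, in sets Control1 and Control2 (94 and 94 cells), or on a high-fat diet, in sets HFD1 and HFD2 (93 and 94 cells). The labels give no strain, age, sorting reporter, diet length or animal per cell, so the set was the unit (n = 2 per diet) and p-values measure only the spread between these sets. Library numbers run in a separate block for each set, so set and library block cannot be told apart. Cells with at least 2000 genes above 0 were kept: 93, 91, 91 and 92 in Control1, Control2, HFD1 and HFD2, with set medians of 6130 to 6895 genes.

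Crypt base markers were present in all sets. Lgr5 stood at 118.9 to 165.2 TPM and Olfm4, another crypt base marker, at 6947 to 11770 TPM in the sets. All 4 sets were near 0 for markers of T cells, B cells, myeloid and stromal cells (summed levels of 0 to 3.19 TPM per list), and Col1a1 was listed at 0 in every cell. Markers of other crypt cells were present too. In Control1, Control2, HFD1 and HFD2 summed Paneth cell markers were at 81.4, 47.1, 4832 and 498 TPM, goblet markers at 509, 78.1, 652 and 542, enterocyte markers at 648, 782, 1222 and 1383, and proliferation genes at 795, 986, 1207 and 1203. Summed crypt stem markers were at 8106, 10345, 10605.5 and 13092 TPM in the same order. The Paneth, goblet, enterocyte, crypt stem and proliferation lists were each higher in both HFD sets than in both control sets. Their part in the results was not tested beyond the values given without Paneth-marker cells. The row Rn45s, the ribosomal RNA precursor, took 39.1%, 24.6%, 26.9% and 18.6% of TPM in Control1, Control2, HFD1 and HFD2. Whether its reads came from precursor or mature ribosomal RNA was not tested. This share lowers the TPM of every other gene in the same cell, so results are given with Rn45s in and out of the total.

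A ribosome has a small subunit, which decodes the mRNA, and a large subunit, which joins the amino acids. Each subunit is built in the nucleolus from ribosomal RNA and a fixed set of proteins, most of them present as a single copy, and cells make the proteins in matched amounts. The mRNAs of ribosomal proteins are among the most abundant of dividing cells. Most begin with a C followed by a run of pyrimidines, the 5′ terminal oligopyrimidine tract, through which mTOR signalling controls their translation. Crypt base stem cells divide often and so need steady ribosome production. The family is also known for its many processed pseudogenes, intronless copies of the mRNAs scattered through the genome.

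The first sequences shown are those that decide whether a row of the table can be told from its copies. In GENCODE M21 (GRCm38), 77 of the 80 members shared at least 1 coding window of 50 bases with another annotated gene, with a median of 9 such genes per member. For 10 members a copy had its own row in the table and shared at least 25% of the windows (11 rows in all). Rpl34 (chr3:130726831-130730398, minus strand) and the pseudogene Rpl34-ps1 (chr6:71124610-71124963) are 99.4% identical over the coding bases. Rpl30 (chr15:34440505-34443640) and Gm12191 (chr11:49678710-49679057) differ at 1 coding base (99.7% identity), and Rpl26 (chr11:68901583-68906989) and Gm15772 (chr5:3236431-3236868) at 2 (99.5%). Rps27 (chr3:90212522-90213651) and Gm9846 (chr9:114982366-114982739, named Rps27rt in RefSeq) differ at 0 coding bases. The paralog Rps27l (chr9:66946086-66949516) is 76.2% identical to Rps27 and differs at 60 coding bases. Each stretch below is 80 coding bases, capitals mark the bases that differ within a pair, and Rps27 is paired with Rps27l.
Rpl34: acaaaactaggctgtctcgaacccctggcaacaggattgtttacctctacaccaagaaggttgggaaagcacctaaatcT
Rpl34-ps1: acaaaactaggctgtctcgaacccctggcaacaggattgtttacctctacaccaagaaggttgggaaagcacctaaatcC
Rpl30: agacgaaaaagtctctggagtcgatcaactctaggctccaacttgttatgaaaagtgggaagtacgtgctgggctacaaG
Gm12191: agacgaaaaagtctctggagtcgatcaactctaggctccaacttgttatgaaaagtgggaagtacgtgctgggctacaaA
Rps27: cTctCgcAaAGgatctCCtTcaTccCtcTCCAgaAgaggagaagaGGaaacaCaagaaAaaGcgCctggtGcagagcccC
Rps27l: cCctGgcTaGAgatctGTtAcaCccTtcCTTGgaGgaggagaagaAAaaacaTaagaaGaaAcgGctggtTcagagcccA
Within these stretches Rpl34 and its copy, and likewise Rpl30 and its copy, differ by 1 base, whereas Rps27 and Rps27l differ by 23. A short read placed between the differing bases fits both rows of the first 2 pairs, and every coding read of Rps27 fits Gm9846 as well.

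The second set of sequences shows a feature found at or near the annotated starts of some members. RefSeq windows (GRCm38.p6) matched 60 of the 80 members, with 72 start sites. A C at the annotated start followed by at least 4 letters that are C or T, on the transcribed strand only, was found at 13 of the 72 sites (18.1%), against 2.51% of the 32851 sites of all genes. Such a run lay anywhere from 10 bases before to 15 after the start at 40 of the 72 (55.6%), against 30.7% of all sites. Annotated starts can lie a few bases from the start used, so no match says only that these letters are not in this window. The windows below are examples and are not in proportion to these shares. They run from 15 bases before the start to 14 after it, with the run in capitals. The first 4 hold the run at the start, Rpl12 holds it 2 bases later and Rplp0 holds none in the window.
Rps6 (chr4:86857353-86857382, minus strand): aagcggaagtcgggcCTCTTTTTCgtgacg
Rps18 (chr17:33955651-33955680, minus strand): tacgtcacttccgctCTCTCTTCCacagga
Rpl28 (chr7:4792950-4792979, plus strand): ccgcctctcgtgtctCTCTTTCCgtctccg
Rpl35 (chr2:39005117-39005146, minus strand): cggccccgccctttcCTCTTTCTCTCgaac
Rpl12 (chr2:32961697-32961726, plus strand): ggcggagcaggatccgtCTTTTCggctttc
Rplp0 (chr5:115559452-115559481, plus strand): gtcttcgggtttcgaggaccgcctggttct

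Ribosomal protein mRNAs together made up a large share of the measured transcripts, and that share differed more between sets than between diets. The summed level averaged 11.6% of TPM per cell in Control1, 21.1% in Control2, 14.6% in HFD1 and 20.1% in HFD2. The 2 control sets thus lay at the bottom and the top, and both HFD sets lay between them. The diets averaged 16.4% ± 6.75 and 17.3% ± 3.90 (SD, n = 2 sets each), a difference of 0.95 percentage points against a spread between sets of 5.51 (exact two-sided permutation p = 1.0). The smallest p that 4 sets allow is 0.333. The difference was −3.82 points without Control1, 5.73 without Control2, 3.71 without HFD1 and −1.81 without HFD2, so its direction rested on single sets. Once Rn45s was taken out of the total the sets stood at 19.03%, 28.005%, 19.9% and 24.7%, and the difference was −1.19 points with a spread of 5.08 (exact permutation p = 1.0). The order of the sets was the same with and without Rn45s, with Control2 highest and Control1 lowest.

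**Figure D1:**
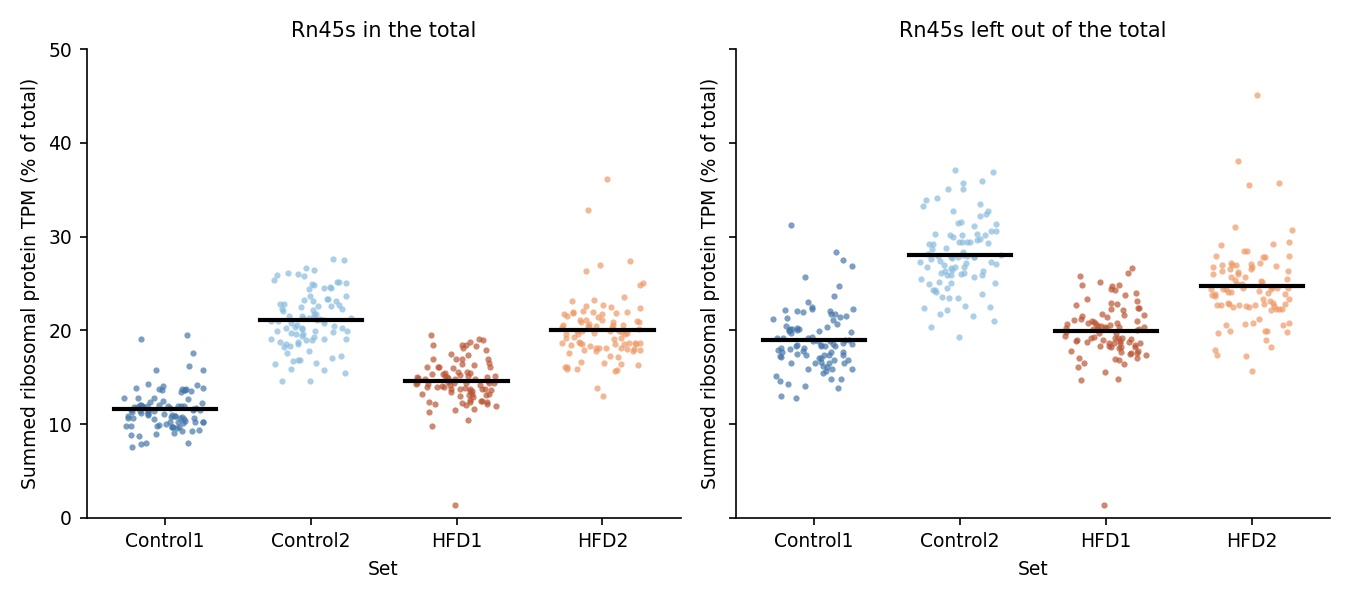
Summed TPM of the 80 ribosomal protein genes as a percent of the cell's total, by set, with Rn45s in the total (left) and left out (right). Each point is 1 cell and black bars are set means, which run 11.6, 21.1, 14.6 and 20.1 on the left and 19.03, 28.005, 19.9 and 24.7 on the right. 1 HFD1 cell lies at 1.35% on the left.

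Most single members followed this order of the sets. In TPM as deposited Control1 was the lowest set for 76 of the 77 tested members, against 35.2% of all tested genes, and Control2 was the highest for 57, against 14.2%. The exception at the low end was Rpl12, with its lowest level in HFD1. With Rn45s left out Control1 was the lowest set for 59 of the 77, against 15.3% of all tested genes, HFD1 for 17 and Control2 for 1 (Rpl34), and Control2 was the highest for 70, against 10.9%. The median log2 fold change of the members, 0.14, was −0.34 without Control1 and 0.59 without Control2, so it depended on which control set was kept. Members at 1 TPM or more numbered 74.6, 75.4, 75.4 and 75.6 per cell in Control1, Control2, HFD1 and HFD2, a difference of 0.48 between diets with a spread of 0.41 (exact permutation p = 0.667). That difference was 0.085 without Control1 and 0.88 without Control2. Of the 77, 71 were above 0 in every cell kept.

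The balance between the subunits varied little. Large subunit mRNAs took 6.51%, 11.6%, 8.09% and 11.04% of TPM in Control1, Control2, HFD1 and HFD2, and small subunit mRNAs 5.08%, 9.53%, 6.46% and 9.04%. The log2 ratio of large to small, which does not depend on the total, averaged 0.36, 0.29, 0.32 and 0.29 per cell. Control1 and HFD1 had the higher ratios, and the diets overlapped. The difference between diets was −0.016 with a spread of 0.040 (exact permutation p = 1.0), and it was 0.020 without Control1, −0.052 without Control2, −0.033 without HFD1 and 0.0012 without HFD2. In single cells of these sets the ratio ran from −0.10 to 0.56. The median log2 fold change was 0.14 for the 46 tested members of the large subunit and 0.15 for the 31 of the small subunit, beside 0.13 for all tested genes.

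The members differed widely in level. Means over the sets ran from 53.98 to 6129 TPM among the 76 core members, with a median of 2114. Among the 66 core members without a copy row the lowest was Rpl22, at 274.5 TPM, so that levels spanned 22.3-fold rather than 113.6-fold. The highest was Rplp0, the base of the large subunit's stalk that recruits translation factors, at 4930, 7215, 5161 and 7212 TPM in Control1, Control2, HFD1 and HFD2. Its 2 stalk partners were lower, Rplp1 at 2981 to 6020 TPM and Rplp2 at 1215 to 2268 TPM across the sets. Rps4x, the X-linked form of a small subunit protein, stood at 4101, 7190, 5213 and 7368 TPM and Rps2, which lies near the mRNA entry site, at 3998, 6429, 5137 and 6692 TPM. For each of these, sets numbered 2 were above sets numbered 1 in both diets, and the diets overlapped.

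Proteins with known roles outside the assembled ribosome were spread over this range. Rpl5 and Rpl11, which bind 5S rRNA and can hold Mdm2 away from p53, stood at 1912 to 3489 and 1265 to 2187 TPM across the sets. Rps6, the target of S6 kinases, stood at 1462 to 2528 TPM, and Rps27a, made as a fusion to ubiquitin, at 1345 to 2705. Rpl13a, which also takes part in translational silencing, lay at 1058 to 1891, Rpl10, which joins the large subunit late in its maturation, at 2442 to 4318, and Rpl3, close to the peptidyl transferase centre, at 3080 to 5139 TPM. Rpsa, also known as a laminin receptor, stood at 3109 to 4859. Rpl41, with a coding length of 75 bases the shortest member, was at 2002 to 4050 TPM, and Rpl39, also very short, at 876 to 2017. Rpl36a was at 660 to 1257 TPM. Across the 76 core members the level rose with coding length (Spearman's rho = 0.60, Pearson's r = 0.42 on log scales). In the 66 without a copy row the rho was 0.57. With transcript length in place of coding length the rho over the 76 was 0.23 and r was 0.07. The members share these libraries and are not independent.

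Only 1 member passed the test between diets. limma on log2(set mean TPM + 1) with Benjamini-Hochberg adjustment over 11667 genes called Rpl34, a large subunit protein, higher in HFD cells, and called 0 members lower. The background of calls was 0.506% of all tested genes in either direction and 0.369% for genes higher in HFD. At an unadjusted p under 0.05 there were 3 members (Rpl34, Rpl30 and Rps27l), which is 3.90% of the 77 against 11.1% of all tested genes. With Rn45s left out of the total 0 members passed, 3 were under an unadjusted p of 0.05 (Rpl34, Rpl30 and Rpl12), and the background of calls was 0.0495%. In TPM as deposited 71 of the 77 fold changes were positive, and with Rn45s out 53 of the 77 were negative. The member median moved from 0.14 to −0.04 and that of all genes from 0.13 to −0.05, so the sign of most members followed the total. Of the 77, 71 lay within 0.3 of 0 on the log2 scale in TPM as deposited and 72 with Rn45s out.

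**Figure D2:**
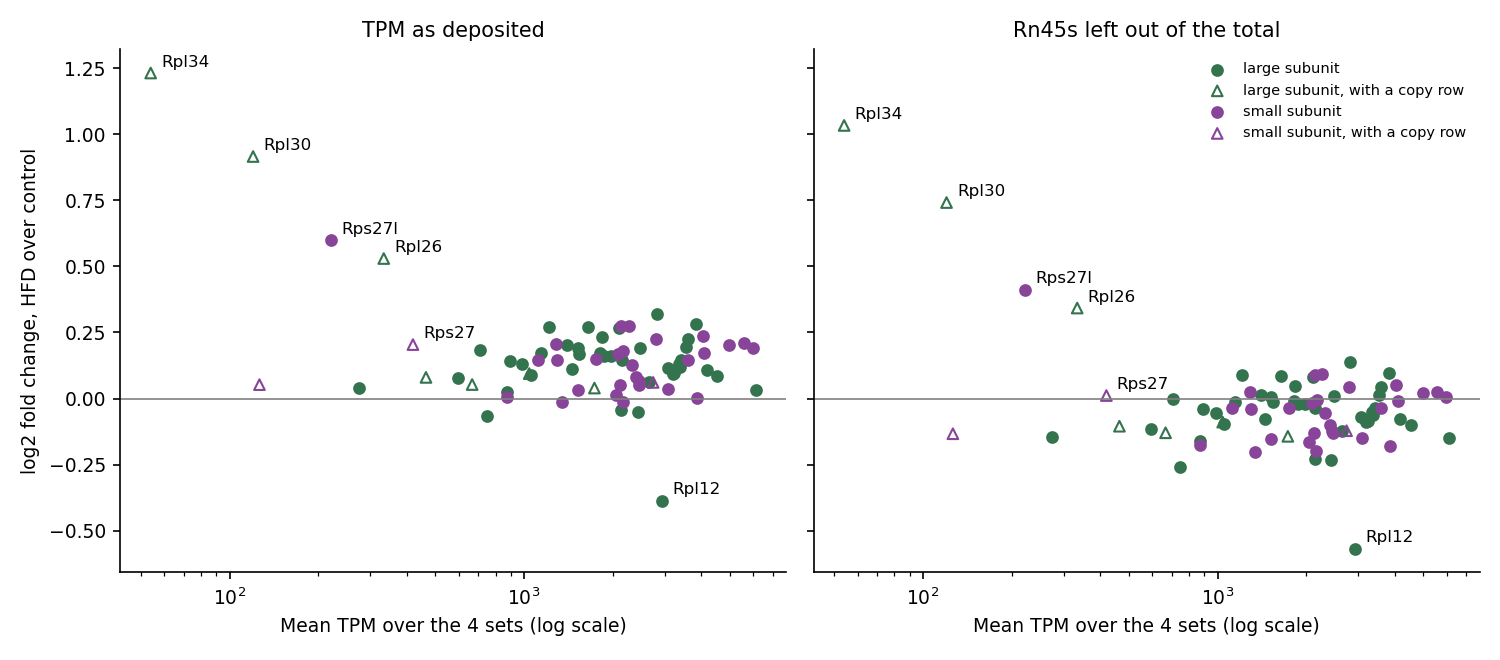
log2 fold change (HFD over control, limma on set means + 1) of the 77 tested ribosomal protein genes against their mean TPM over the 4 sets on a log scale, with TPM as deposited (left) and Rn45s left out of the total (right). Points are genes, coloured by subunit, and open triangles have a copy row. Most members lie in a narrow band near 0, with Rpl34, Rpl30, Rps27l and Rpl26 above it at low TPM and Rpl12 below it.

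Rpl34 stood at 31.5 TPM in Control1, 32.1 in Control2, 70.6 in HFD1 and 81.7 in HFD2, a log2 fold change of 1.23 (SE 0.25, limma adjusted p = 0.0133). Both HFD sets lay above both control sets. These levels were the lowest of any core member, and most of the signal of this sequence lay in the row of Rpl34-ps1, at 977, 2146, 1269 and 1760 TPM in Control1, Control2, HFD1 and HFD2. Rpl34 was listed at 0 in 62, 41, 27 and 27 cells of these sets and Rpl34-ps1 in 4 cells in all, and no cell had both at 0. In the cells above 0 the median of Rpl34 was 29.25, 34.6, 59.7 and 54.7 TPM. Rpl34 held over 90% of the pair's TPM in 2 cells of Control1 and 2 of HFD1, which are part of the set means. The coefficient of variation over cells was 4.30 in Control1, 1.78 in Control2, 1.73 in HFD1 and 2.24 in HFD2. With both rows added the level was 1008, 2178, 1339 and 1841 TPM, the diets overlapped, and the log2 fold change was 0.08 (SE 0.42, limma adjusted p = 0.963). The call was also lost without HFD2 (log2 fold change 1.13, limma adjusted p = 0.136). With the total computed without Rn45s the log2 fold change was 1.03 (SE 0.22, limma adjusted p = 0.394).

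The other members with the most positive fold changes had a copy row as well, apart from Rpl5 and the paralog Rps27l. Rpl30, a large subunit protein, was at 58.6, 111.95, 134.5 and 175.8 TPM in Control1, Control2, HFD1 and HFD2, with both HFD sets above both control sets (log2 fold change 0.92, SE 0.28, limma adjusted p = 0.213). The fold change was 0.45 without Control1 and 1.38 without Control2, where limma called it (adjusted p = 0.00175). Its copy row Gm12191 held 93.8% of the pair's TPM over all cells. With the rows added Rpl30 had a log2 fold change of 0.33 (limma adjusted p = 0.831). Rpl26, which lies at the exit of the large subunit's peptide tunnel, was at 196.97, 357.6, 318.2 and 462 TPM, and its diets overlapped (0.53, SE 0.30, adjusted p = 0.534 by limma). Gm15772 held 85.6% of that pair, and the fold change of the sum was 0.11. The fold change of Rpl5 was 0.32 on the log2 scale (SE 0.47, adjusted p = 0.851 by limma). None of the 10 members with copy rows passed when the rows were added, and neither did any of the other 67.

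Rps27l, the paralog of Rps27 that p53 can induce, rested on a sequence distinct from Rps27 and had no copy row. It stood at 139.3 TPM in Control1, 215.3 in Control2, 224.6 in HFD1 and 307.8 in HFD2, a log2 fold change of 0.60 (SE 0.28, limma adjusted p = 0.430), and with Rn45s left out at 227.1, 285.3, 306.003 and 375.7 TPM. Both HFD sets were above both control sets on either scale. The fold change in TPM was 0.29 without Control1, 0.91 without Control2 and 0.37 without HFD2. It was listed at 0 in 5 cells. Its correlation with the summed level of the other members across cells was the lowest of the 77, with a mean r over the sets of −0.05. GENCODE holds 4 other genes that share at least 1 coding window with Rps27l, with a maximum of 22.7% of the windows. These genes were not analysed here.

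Rps27 itself showed how a row and its identical copy divided the reads. Rps27 was at 192.96, 639, 300.9 and 545 TPM in Control1, Control2, HFD1 and HFD2 and Gm9846 at 771, 1597, 910 and 1410. Rps27 was listed at 0 in 66, 53, 63 and 60 cells of these sets and Gm9846 in 16, 14, 17 and 23, and no cell had both at 0. In the cells where Rps27 was listed at 0 the median of Gm9846 was 1337 TPM, and in the cells where it was above 0 the median of Rps27 was 1335 TPM. In 280 cells over 90% of the sum lay in Gm9846 and in 82 cells over 90% lay in Rps27. Within sets, the 2 rows had Pearson correlations of −0.86, −0.81, −0.91 and −0.92 on the log2(TPM + 1) scale. The sum, at 964, 2236, 1211 and 1955 TPM, had a coefficient of variation over all cells of 0.50, against 1.91 for the Rps27 row. A cell listed at 0 for Rps27 was thus not at 0 for that sequence.

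**Figure D3:**
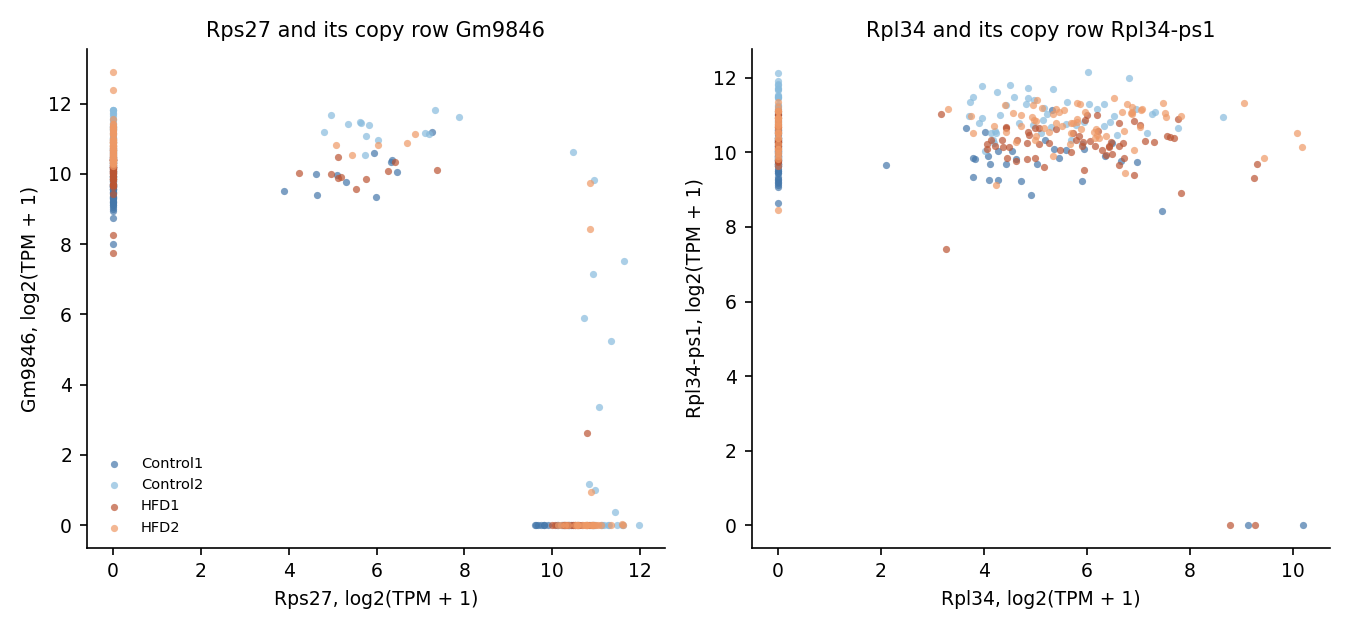
Level of Rps27 against its identical copy row Gm9846 (left) and of Rpl34 against Rpl34-ps1 (right) in single cells, as log2(TPM + 1), coloured by set. For Rps27 most cells sit on 1 axis or the other, and 55 cells have both rows above 0. Over 90% of the sum lies in Gm9846 in 280 cells and in Rps27 in 82. For Rpl34 nearly all cells lie high on the vertical axis.

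Most of the remaining copy rows were minor. Wdr89 held 0.23% of the pair with Rplp2, Gm6654 0.43% of that with Rps26, BC004004 2.46% of that with Rpl21, Gm13826 8.10% of that with Rpl37 and Rpl31-ps12 12.2% of that with Rpl31. Wdr89 and BC004004 are annotated as protein coding genes in their own right, and share 66.2% and 53.6% of the member's windows. The whole level of each row was counted. Rps15a, a small subunit protein at 87.6, 164.4, 103.3 and 150.04 TPM, had 2 copy rows, Rps15a-ps6 and Rps15a-ps4, at 97.3 to 215.2 and 72.4 to 161.1 TPM across the sets. Adding the copy rows left the difference in summed family level between diets at 0.97 percentage points, against 0.95 without them.

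Rpl12, a protein at the base of the stalk beside Rplp0, was the member furthest in the other direction. It stood at 2403 TPM in Control1, 4347 in Control2, 2212 in HFD1 and 2764 in HFD2, a log2 fold change of −0.39 (SE 0.48, limma adjusted p = 0.820), and the diets overlapped, with Control1 low as it was for the rest of the family. Without Control2 this fold change was 0.04. Leaving Rn45s out, the same sets stood at 3939, 5759, 3029 and 3409 TPM, without overlap between diets (−0.57, SE 0.24, limma adjusted p = 0.769). As a share of the summed family TPM, Rpl12 took 2.07% in Control1, 2.06% in Control2, 1.52% in HFD1 and 1.38% in HFD2. The difference was −0.62 percentage points with a spread of 0.072 between sets (exact permutation p = 0.333, the smallest that 4 sets allow). With set means scaled to the family sum, limma gave a log2 fold change of −0.51 (SE 0.18, unadjusted p = 0.00348, adjusted p = 0.738 over all genes).

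The shift of Rpl12 ran through nearly all cells. Its share of the family had medians of 2.03%, 2.02%, 1.498% and 1.38% over the cells of Control1, Control2, HFD1 and HFD2. Of the HFD cells, 96.7% in HFD1 and 97.8% in HFD2 lay below 2.02%, the median of all control cells, against 49.5% and 50.5% of the control cells. Cells of a set are not replicates, so this describes the sets. The difference lay between −0.54 and −0.69 points when each set was left out in turn, and was −0.64 without the 50 cells that held Paneth markers. Rpl12 was above 1 TPM in each cell kept. No row of the table shares its coding windows. GENCODE holds 14 other genes that share at least 1 window, with a maximum of 100% of the windows, and these genes and their positions were not analysed here.

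Scaled to the family, most of the other members moved less than Rpl12, while Rpl34 and Rpl30 moved further, upwards. The log2 ratio of shares (HFD over control) was −0.51 for Rpl12 and ran from −0.20 (Rpl37a) to 0.19 (Rpl5) for the other tested members, leaving aside Rpl34, Rpl30, Rps27l and Rpl26 at 0.40 to 1.07. After Rpl12 the most negative fold changes in TPM were those of Rpl37a (−0.07, SE 0.35), Rpl28 (−0.05, SE 0.45), Rpl32 (−0.04, SE 0.45) and Rps15 (−0.01, SE 0.44), none of which passed. Both HFD sets lay above both control sets in family share for 19 of the 77 and below them for 19. Among all tested genes scaled the same way, the shares were 11.4% above and 6.21% below. Shares of a fixed sum depend on each other, so the equal counts carry no direction for the family. In TPM as deposited the 2 HFD sets lay above both control sets for 3 members (Rpl34, Rpl30 and Rps27l), against 29.5% of all tested genes, and below for 0 members, against 12.3%. With Rn45s left out the same 3 lay above and Rpl12 lay below, so that 4 of the 77 were without overlap, against 35.2% of all tested genes.

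**Figure D4:**
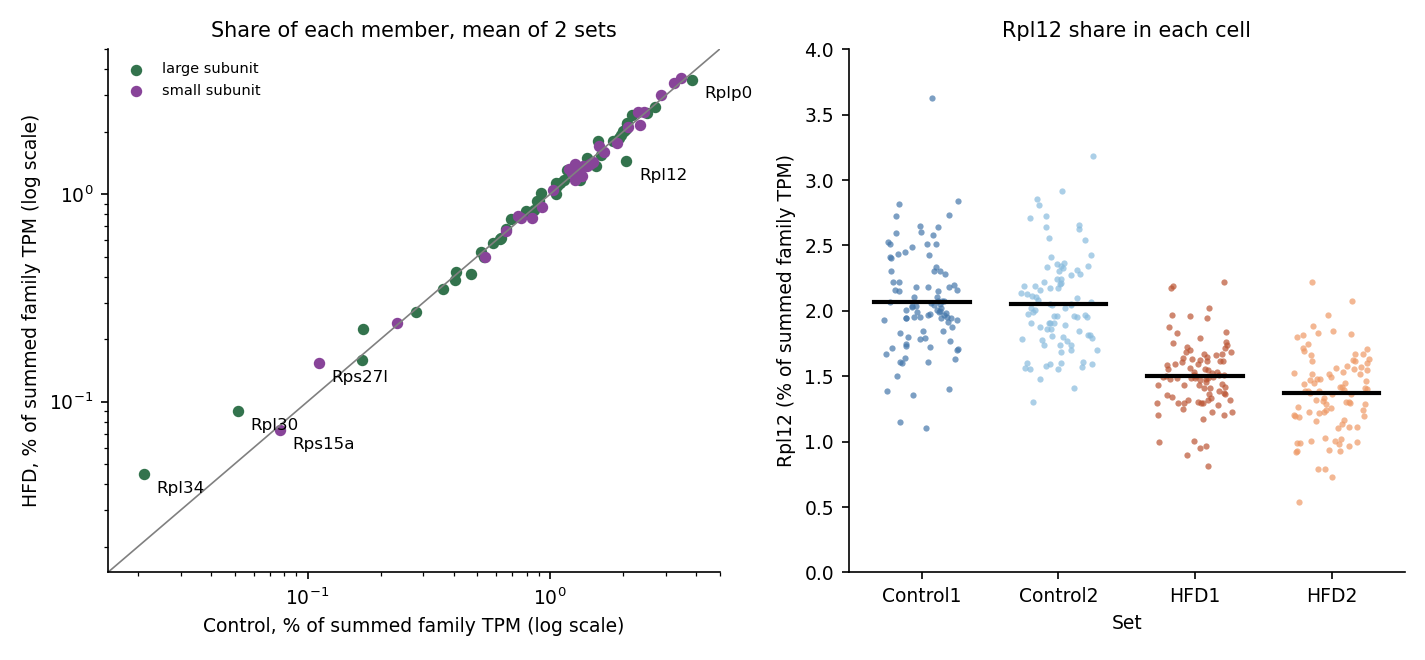
Left, each tested member's percent of the summed family TPM in the HFD sets against the control sets (means of 2 sets, log scales, the line marks equal shares). Right, the share of Rpl12 in each cell by set, with black bars for the mean over cells. Rpl12 lies below the line on the left, and on the right both HFD sets lie lower than both control sets.

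The level of the family also varied between the cells of a set. Its percent of TPM, Rn45s left out, had SDs over cells of 3.28, 3.83, 3.24 and 4.34 points in Control1, Control2, HFD1 and HFD2. In each set it was lower in cells with a higher proliferation score (mean log2(TPM + 1) of 10 cell cycle genes such as Mki67 and Top2a), with Spearman's rho of −0.48, −0.39, −0.59 and −0.45. Cells at or above the set's median score had a median percent that differed from that of the other cells by −2.13, −2.65, −2.20 and −3.23 points. The score also rose with the number of genes detected (rho 0.66 to 0.81), and the family's percent fell with that number (rho −0.38, −0.28, −0.50 and −0.53). Their separate parts in the relation were not tested. The Spearman correlation with a Paneth marker score was 0.06 to 0.22 across the sets and with an enterocyte score −0.26 to −0.04, and with goblet and crypt stem scores it had both signs. Pearson's r with the Paneth score was −0.09, 0.22, −0.31 and 0.002 in Control1, Control2, HFD1 and HFD2. Its sign thus differed from that of rho in Control1 and HFD1. In both control sets no cell lay below the set's median Paneth score.

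**Figure D5:**
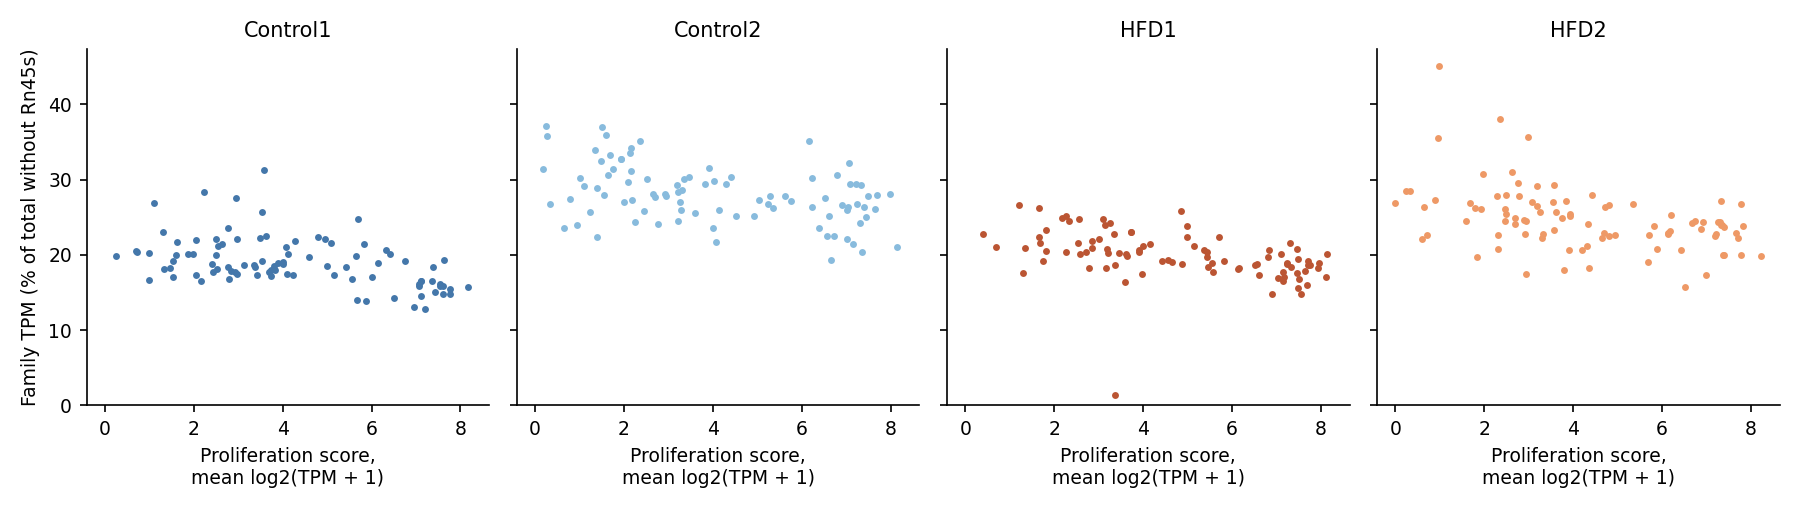
Summed ribosomal protein TPM as a percent of the total without Rn45s (vertical) against a proliferation score, the mean log2(TPM + 1) of 10 cell cycle genes (horizontal), in the cells of each set. Each point is 1 cell. The percent is lower at higher scores in all 4 sets, with Spearman's rho of −0.48, −0.39, −0.59 and −0.45.

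Members differed in how evenly they were measured. The coefficient of variation over the cells of a set, averaged over sets, had a median of 0.28 among the 77 and exceeded 0.5 for 6 members, namely Rpl34 (2.51), Rps27 (1.87), Rpl30 (1.31), Rpl26 (0.95), Rps27l (0.61) and Rpl22 (0.56). Of these 4 have a copy row. The most even were Rplp0 (0.21), Rps2 (0.21) and Rps4x (0.22). Across the cells of a set, a member's log level had a median correlation of 0.61 with the summed level of all others, and the correlation was under 0.1 for Rpl34, Rpl30, Rpl26, Rps27 and Rps27l. Without the cells that held Paneth markers the median was 0.51, and the same 5 members were under 0.1. Between pairs of the 71 members above 0 in every cell, the median r was 0.34, 0.31, 0.68 and 0.35 in Control1, Control2, HFD1 and HFD2, and without those cells it was 0.32, 0.30, 0.28 and 0.32. In each set the median r of large-to-small pairs lay between that of pairs within the large subunit, which was lower, and that of pairs within the small subunit, which was higher. In Control2, for instance, these were 0.33, 0.27 and 0.36, and the differences were not tested. Without the cells that held Paneth markers this order was lost in HFD2, at 0.312, 0.328 and 0.333. These correlations share library and depth and are descriptions.

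Genes that make, assemble and use ribosomes were described for comparison from lists chosen by function. By limma 0 genes passed in any of them, in TPM as deposited or with Rn45s out. The median log2 fold change was 0.24 for 20 genes of rRNA synthesis (0 under an unadjusted p of 0.05), 0.33 for 57 assembly factors (12 under it), 0.31 for 37 translation factors (8) and 0.06 for 20 genes of growth control (2), beside 0.13 for all genes and 0.14 for the ribosomal proteins. Over all tested genes 11.1% were under that p. With Rn45s out the medians of these lists were 0.06, 0.15, 0.13 and −0.12 in the same order, beside −0.05 for all genes. Among assembly factors Fbl, the methyltransferase fibrillarin, was at 102.5, 137.7, 216.6 and 180.8 TPM (0.73, SE 0.25, limma adjusted p = 0.277), and Ltv1, needed for export of the small subunit, at 24.6, 25.6, 44.9 and 53.7 TPM (0.94, SE 0.26, limma adjusted p = 0.131). Both HFD sets were above both control sets for each. Among translation factors the log2 fold change was 0.99 (SE 0.28) for Eif1, which guards start codon choice, 0.84 (SE 0.26) for the eIF3 subunit Eif3b, and −0.09 (SE 0.48) for Eef2, the elongation factor that moves the ribosome along. In growth control, Tsc2, a brake on mTORC1, stood at 48.7, 35.5, 29.03 and 25.97 TPM (−0.58, SE 0.26) and Akt1s1, another inhibitor of mTORC1, at 27.1, 31.7, 42.4 and 46.3 TPM (0.58, SE 0.26). Of the 20 rRNA synthesis genes 16 had a positive fold change in TPM as deposited, against 62.5% of all tested genes. The named rises were Cd3eap at 0.51 on that scale (SE 0.29) and Polr2f at 0.35 (SE 0.25). The named falls were the largest RNA polymerase I subunit Polr1a at −0.24 (SE 0.31) and the factor Taf1b at −0.36 (SE 0.37).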

How the data were processed

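The deposited table gave each gene's TPM in each cell, as made by the authors. Bowtie2, RSEM and mm10 are named in the submitters' processing notes; their versions and the annotation are not stated there. RSEM divides a read that fits several genes between their rows, so a member and a near-identical copy can trade level. Every column's unit was TPM, a level per transcript length without counts, so read depth is unknown, no counting interval was given and no count test was run.

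Set means over cells with at least 2000 genes above 0 were compared on log2(mean TPM + 1) with limma 3.58.1 (R 4.3.3) with a mean-variance trend, over genes averaging at least 1 TPM, with Benjamini-Hochberg adjustment and 0.05 as the threshold; fold changes on this scale understate those of low genes. Values per set were compared by exact permutation. The limma step was tested on simulated data. "Rn45s left out" rescales the other genes to the same total per cell. Rows sharing at least 25% of a member's coding windows of 50 bases counted as copy rows. Cells with Paneth markers had at least 3 markers at 10 TPM.

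Members, lists and tests were chosen with earlier results of these data known. Named members were those called, the 5 most positive and 5 most negative fold changes, the 5 highest and 5 lowest levels, those not passing the filter, the 3 highest and 3 lowest coefficients of variation, and a set given by name; listed genes were the 2 of smallest p per direction. Some genes that this rule names are not reported here. The settings tried are given in the closing section; adding copy rows, scaling to the family sum, and the settings for Rpl12 were chosen after seeing the data.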

Additional observations from a re-analysis of the deposited data

How the results depend on the processing

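Rpl34 remained the only member called, and higher, with pseudocounts of 0.1 and 10, a filter at 5 TPM, median-ratio scaling, cell-wise logs with Rn45s out, cells with at least 4000 genes, and without Paneth-marker cells. The number called higher was 0 with no filter, with Rn45s out, without a trend, with all cells, with pseudogene rows or copy rows added, and scaled to the family sum, and 2 (Rpl34 and Rpl30) with cell-wise logs. Over all genes, 0 were called with no filter, 6 with Rn45s out, 6 without a trend and 14 with all cells, against 59 in the main fit. The total was 58 with pseudogene rows, 59 with copy rows, 38 scaled to the family sum and 67 with cell-wise logs. Leaving out each set gave 0 to 2 (0 without HFD2, and Rpl34 with Rpl30 without Control2). With the set number as a replicate block it was 3 (Rpl34, Rpl30 and Rps27l), among 635 of 11667 genes called, against 59 in the main fit. With the block and Rn45s out it was 2 (Rpl34 and Rpl30), with 1 called lower (Rpl12, −0.57, limma adjusted p = 0.00292). That fit called 514 of 12124 genes, so members were not singled out by it. The sets share only a number: deviations of same-numbered sets correlated at 0.23 over all tested genes and 0.64 over the 77 members, too few sets to show pairing. Where the call was lost, adding rows changed the level itself, and other causes were not tested. The number called lower was 0 elsewhere. Under the settings that kept all 4 sets, differences in family percent, subunit ratio, members detected and the share of Rpl12 moved by less than the spread between sets, though the first 2 changed sign in some. With 2 sets per diet, leaving 1 out cannot move a difference beyond that spread. Read depth is unknown, and 2 sets per diet limit every comparison.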

Other observations

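Mitochondrial ribosomal proteins, which serve the separate ribosomes of mitochondria and were matched by their Mrpl and Mrps symbols, had a higher median log2 fold change than their cytosolic counterparts. Of 76 tested, 76 had a positive fold change in TPM as deposited, while with Rn45s out some were negative. The median was 0.39 in TPM as deposited and 0.21 with Rn45s out. By limma 0 passed, with 21 under an unadjusted p of 0.05 in TPM as deposited. Over all tested genes 62.5% of fold changes were positive, 11.1% were under that p, and the medians were 0.13 and −0.05. Mrps22 stood at 41.9, 51.7, 74.04 and 83.2 TPM in Control1, Control2, HFD1 and HFD2 (0.74, SE 0.25), and Mrpl3 at 37.002, 36.1, 55.2 and 60.4 TPM (0.65, SE 0.25).

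The cell of lowest family percent, in HFD1, held 1.35% of TPM in ribosomal protein genes and 55.96% in genes with Defa symbols, the alpha-defensins of Paneth cells. It had 9524 genes above 0 and 75 members at 1 TPM or more. The cell of highest percent, in HFD2, held 36.1% with 3533 genes. The 8 cells left out had 10 to 977 genes above 0 and held 0% to 47.4% of TPM in the family, with 0 to 72 members detected.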
